A study of Mus musculus with 6 samples.

Results

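The genes described here encode the proteins of the mitochondrial ribosome. They are the protein-coding mouse genes whose symbol begins with Mrpl (large subunit) or Mrps (small subunit) followed by a digit, which gave 78 genes, 49 Mrpl and 29 Mrps, of the 53465 genes in the count table. The libraries came from brain endothelial cells of the cortex, the cells that line the brain's blood vessels. In the PTZ group the mice had been injected with pentylenetetrazol, a convulsant that blocks GABA-A receptors, and in the PBS group with phosphate-buffered saline. All 6 libraries, numbered 1, 2 and 4 in each group, came from male mice of 8 to 12 weeks that carried tie2-Cre, ai9 and rpl22HA/HA. These are a Cre driven by the Tie2 promoter, which also acts in some blood cells besides endothelium, a fluorescent reporter switched on by Cre, and a tagged protein of the cytosolic ribosome. By the title of the series, a translatome was measured. The sources used here do not give the step that isolated the cells or their ribosomes, the dose of PTZ or how long after injection the cortex was taken. Whether each library is a different animal is not labelled, so a p-value here speaks of the spread among these libraries only, and that spread may be technical.

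Mitochondria keep a ribosome of their own, descended from a bacterial one, which translates the few messenger RNAs of the mitochondrial genome into core subunits of the respiratory chain and the ATP synthase. Its ribosomal RNAs are made inside the organelle, while all of its proteins are encoded in the nucleus, translated on cytosolic ribosomes and imported. The small subunit binds the messenger RNA and decodes it, and the large subunit joins the amino acids and passes the new chain out through a tunnel to the inner membrane. A library of RNA bound to cytosolic ribosomes would hold the messenger RNAs of these proteins.

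Gene counts summed to 11107481 to 15406967 per library. Library PTZ-1 stood apart, since 9.34% of its reads lay in no annotated gene, against 2.99% to 5.19% in the other 5, so results are given with and without it. In counts over all genes PTZ-2 was the library most unlike its group, since chi-square over its degrees of freedom was 119 against PTZ-1 and 114 against PTZ-4, where it was 64.7 between PTZ-1 and PTZ-4 and 49.8 to 62.5 among the PBS libraries. Levels are CPM (a gene's reads scaled to a common library total, with TMM factors), and fold changes are log2 of PTZ over PBS. The endothelial label was checked with Pecam1, an adhesion molecule, at 555, 665 and 702 CPM in PTZ, against 475, 611 and 568 CPM in PBS, and with Cldn5, a tight junction protein of these cells, at 462, 1516 and 744 CPM in PTZ, against 705, 1237 and 490.0 CPM in PBS. Genes with a read numbered 23867 to 25620 in PTZ and 22683 to 23823 in PBS.

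The members spanned a wide range of levels. Per kilobase of exon, tested members lay between 1.01 CPM (Mrps35) and 451 CPM (Mrps21), with a median of 24.5 CPM per kilobase over both groups. The highest of the large subunit were Mrpl28 at 267, Mrpl41 at 241 and Mrpl36 at 176 CPM per kilobase, and of the small subunit Mrps21 at 451, Mrps12 at 247 and Mrps33 at 236. Mrps21 and Mrps12 have bacterial counterparts, and Mrps33 does not. Mrps21 stood at 203, 394 and 267 CPM in PTZ, against 329.7, 424 and 381 CPM in PBS. Mrpl28, which has a bacterial counterpart, stood at 244, 382 and 363 CPM in PTZ, against 362, 454 and 406 CPM in PBS. Both had their lowest value in PTZ-1. Mrps33 stood at 336, 399 and 304 CPM in PTZ, against 475, 464 and 382 CPM in PBS. Mrpl41, which is mitochondria-specific, stood at 154, 238 and 159 CPM in PTZ, against 278, 223 and 234 CPM in PBS. In all 4 PTZ-1 or PTZ-4 was the lowest library, and the groups overlap. Of the 78 members, 76 passed the filter on low counts and were tested, 48 Mrpl and 28 Mrps. Mrpl53 had 0 or 1 reads per library and Mrps34 2 to 14, and 88.0% and 77.8% of their exonic bases are shared with another gene (Ccdc142os and Gm42688 for Mrpl53, Mapk8ip3 and Nme3 for Mrps34), where reads may have been counted as ambiguous. The table also holds 5 processed pseudogenes named after members, which were not counted in: Mrpl23-ps1 had 43 to 90 reads per library and the other 4 had 0 to 3.

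Summed over all members, the RNA of both subunits was lower in every PTZ library than in every PBS library. The large subunit summed to 3919.9, 4849 and 4425 CPM in PTZ, against 5833, 5817 and 5623 CPM in PBS for libraries 1, 2 and 4. This is 4398 ± 465 CPM in PTZ and 5757 ± 117 CPM in PBS (SD, n = 3 each), a log2 difference of -0.39, and -0.31 without PTZ-1. The small subunit summed to 2005, 2535 and 2199.9 CPM in PTZ, against 2929, 2831 and 2733 CPM in PBS, or 2247 ± 268 CPM in PTZ and 2831 ± 97.7 CPM in PBS, so that the log2 difference was -0.33, and -0.26 without PTZ-1. The PBS libraries lay within a narrow band, the PTZ libraries were spread more widely, and the lowest for both subunits was PTZ-1. As a share of all gene counts before scaling, both subunits made up 0.638% to 0.689% in PTZ and 0.791% to 0.942% in PBS. Fewer cells of a type and less RNA per cell cannot be told apart in such bulk libraries.

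**Figure D1:**
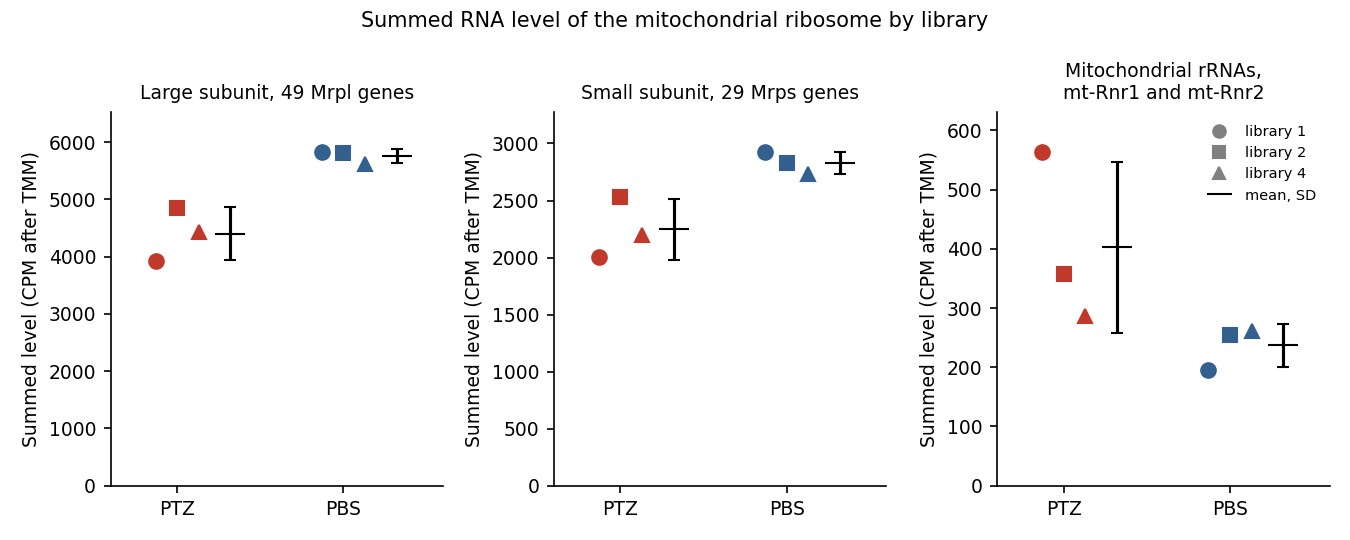
Summed level in CPM after TMM scaling for the large subunit, the small subunit and the mitochondrial ribosomal RNAs. Each point is a library (shape gives its number), and the bar gives mean and SD. Both subunits lay at 3920 to 4849 and 2005 to 2535 CPM in PTZ, below every PBS library, while the ribosomal RNAs lay above.

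Gene by gene, differences were small and mostly in 1 direction. The median log2 fold change was -0.37 for Mrpl genes and -0.36 for Mrps genes, against 0.034 for all 13768 genes tested, and 43 of 48 Mrpl and 23 of 28 Mrps genes lay below 0, where 47.3% of all genes did. Without PTZ-1 the medians were -0.37 and -0.36, with 42 of 48 and 20 of 28 below 0, where 48.3% of all genes were. No member passed edgeR's quasi-likelihood test at an adjusted p of 0.05, nor did any other gene tested (background 0.0% lower and 0.0% higher). The smallest adjusted p of a member was 0.601, and DESeq2 and limma-voom also called 0 members. At an unadjusted p under 0.05, 16 Mrpl and 3 Mrps genes were lower, against a background of 3.38% of all genes, and 1, Mrpl54, was higher, against 3.83%. Without PTZ-1 these counts were 12 lower and 2 higher, against backgrounds of 3.17% and 2.74%. The 19 lower genes became 32 without PTZ-2, against a background of 6.57%, and 10 without PBS-1, against a background of 1.9%, so that members and background moved the same way. With the library number as a block, 27 were lower and 1 higher, against backgrounds of 5.31% and 5.59%.

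For 21 tested members, 16 Mrpl and 5 Mrps, all PTZ libraries lay below all PBS libraries, and for 1, Mrpl38, all lay above. The background is 7.04% lower and 7.3% higher. All 21 also stayed apart when PTZ-1 was left out, which is true by construction, and the count was then 26 lower against a background of 11.6%. Within pairs of the same number, 41 of 76 tested members were lower in PTZ in all 3 pairs and 3 were higher in all 3, against 16.6% and 18.5% of all genes. PTZ-1 was the lowest of the 6 libraries for 28 tested members, PTZ-4 for 21 and PTZ-2 for 18, PBS-4 for 5 and PBS-2 for 4. PBS-1 was the lowest for 0 and the highest for 30. Over all genes tested, PTZ-1 was the lowest for 20.2%, PTZ-4 for 14.4% and PTZ-2 for 17.9%. The shares were 18.7% for PBS-4, 13.3% for PBS-2 and 15.6% for PBS-1, which was the highest for 1791 of the 13768 genes.

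**Figure D2:**
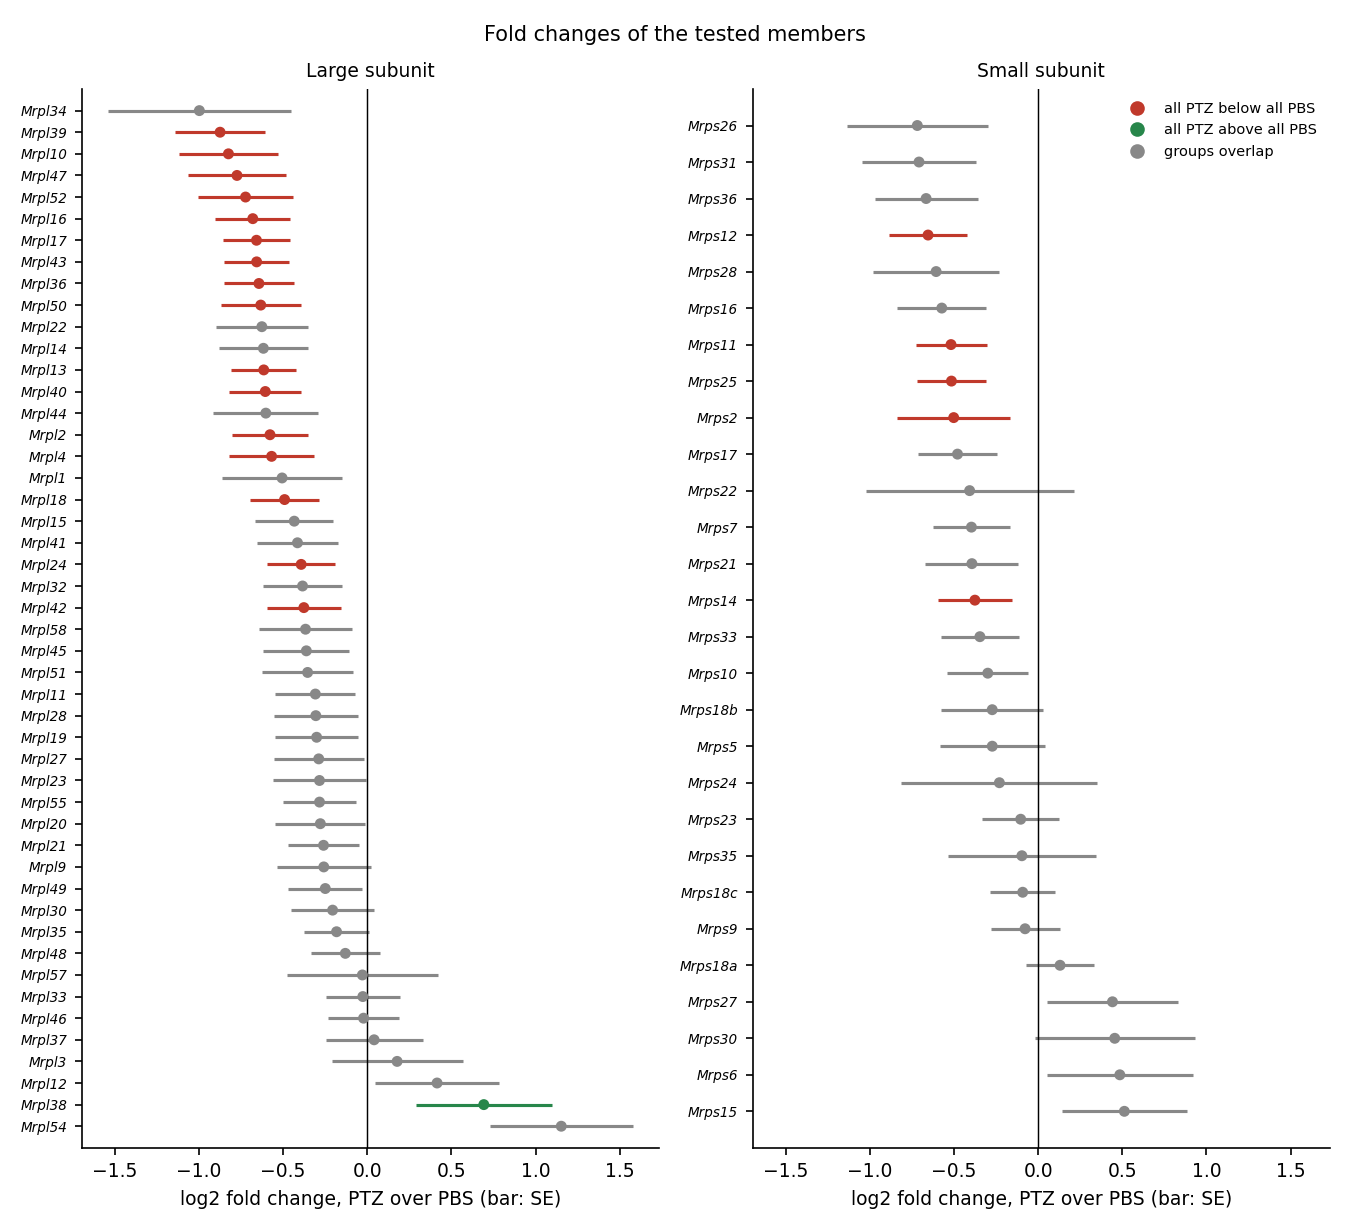
Log2 fold change, PTZ over PBS, of the 48 tested Mrpl and 28 tested Mrps genes, with bars of 1 SE; colour marks whether all PTZ libraries lay below or above all PBS libraries. Points to the left of 0 outnumber those to the right in both subunits, 43 of 48 and 23 of 28.

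The members are short genes, and short genes in general had lower values in PTZ. The tested members had a median exonic length of 2542 bases, against 4596 bases for the 12354 tested protein-coding genes. With protein-coding genes split into 4 classes of equal size by exonic length, the shortest class had 198 to 2899 exonic bases. There the median log2 fold change of other genes was -0.15 (63.8% below 0), and that of the 43 members in it was -0.39 (37 below 0). In the longest class, other genes had a median of 0.21 and the 7 members there -0.30. Without PTZ-1 these medians were -0.073 and -0.36 for other genes and members of the shortest class, and 0.11 and -0.36 in the longest. In the second class the 17 members had a median of -0.38, against -0.034 for other genes, and -0.40 against -0.017 without PTZ-1. In the third class the 9 members had a median of -0.28, against 0.077 for other genes. Without PTZ-1 that gap was small, at -0.065 against 0.038. The members' median lay below that of other genes in all 4 classes, and the part of length in the result was not tested.

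Among the large subunit, the smallest p-values belonged to 7 genes of lower level in PTZ, and for all 7 the groups did not overlap. Picking genes by a small p from the same libraries favours this, so it is no further support. Mrpl43 (ENSMUSG00000025208, chromosome 19, 45004829 to 45006442, minus strand, GRCm38), a protein found in mitochondrial but not bacterial ribosomes, stood at 67.1, 62.8 and 72.3 CPM in PTZ, against 101, 114 and 103 CPM in PBS. Its log2 fold change was -0.66 (SE 0.19, edgeR adjusted p = 0.601). Of the gene's exonic bases, 33.4% are shared with Twnk, the mitochondrial DNA helicase gene on the opposite strand, where reads may have been counted as ambiguous. Mrpl39 (ENSMUSG00000022889, chromosome 16, 84717576 to 84735742, minus strand), another mitochondria-specific protein, stood at 24.01, 23.9 and 35.2 CPM in PTZ, against 57.03, 40.1 and 55.3 CPM in PBS, with a log2 fold change of -0.87 (SE 0.27, edgeR adjusted p = 0.615). Every PTZ value of both genes lay below every PBS value.

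Mrpl17 (ENSMUSG00000030879, chromosome 7, 105803206 to 105811099, minus strand), the counterpart of bacterial L17 at the tunnel exit, stood at 142, 115 and 144 CPM in PTZ, against 202, 217 and 214 CPM in PBS, with a log2 fold change of -0.66 (SE 0.20, edgeR adjusted p = 0.618). PTZ-2 was lowest. Mrpl13 (ENSMUSG00000022370, chromosome 15, 55534094 to 55557748, minus strand), whose bacterial counterpart joins early in assembly, stood at 99.3, 114 and 114 CPM in PTZ, against 166, 179 and 157 CPM in PBS, with a log2 fold change of -0.62 (SE 0.19, edgeR adjusted p = 0.625). Mrpl36 (ENSMUSG00000021607, chromosome 13, 73328513 to 73332178, plus strand), a small protein with a bacterial counterpart, stood at 134, 178 and 166 CPM in PTZ, against 266, 239 and 243 CPM in PBS, with a log2 fold change of -0.64 (SE 0.21, edgeR adjusted p = 0.635). The groups of these genes do not overlap.

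Mrpl16 (ENSMUSG00000024683, chromosome 19, 11770391 to 11774960, plus strand), which in bacteria lies near the peptidyl transferase centre, stood at 35.3, 36.02 and 42.4 CPM in PTZ, against 65.9, 64.8 and 51.7 CPM in PBS, with a log2 fold change of -0.68 (SE 0.22, edgeR adjusted p = 0.636). Mrpl40 (ENSMUSG00000022706, chromosome 16, 18872018 to 18876862, minus strand), a mitochondria-specific protein of the central protuberance, stood at 51.9, 66.8 and 71.8 CPM in PTZ, against 105, 90.2 and 94.4 CPM in PBS, with a log2 fold change of -0.61 (SE 0.21, edgeR adjusted p = 0.648). In each, the highest PTZ library lay below the lowest PBS library. By place in the ribosome, the 6 members at the tunnel exit all had fold changes below 0, with a median of -0.51, and the 6 of the central protuberance had a median of -0.21. Members of a family shared with bacteria had a median of -0.39 (30 Mrpl tested) and -0.30 (17 Mrps tested), and the rest -0.36 (18 Mrpl tested) and -0.41 (11 Mrps tested); these classes were drawn up after the values were seen.

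The promoters of Mrpl43, Mrpl39 and Mrpl17, the 3 members with the smallest p, are shown because the genes of this ribosome are scattered over 17 chromosomes and motifs of factors known to control nuclear genes for mitochondria were searched for in their promoters. Windows run from 250 bases before to 50 after the gene start, from RefSeq (GRCm38.p6), 5′ to 3′ on the gene's strand, with matches to NRF1, ETS or YY1 motifs in capitals. They lie at chr19:45006393-45006692 (minus strand), chr16:84735195-84735494 (minus strand) and chr7:105811038-105811337 (minus strand).
Mrpl43: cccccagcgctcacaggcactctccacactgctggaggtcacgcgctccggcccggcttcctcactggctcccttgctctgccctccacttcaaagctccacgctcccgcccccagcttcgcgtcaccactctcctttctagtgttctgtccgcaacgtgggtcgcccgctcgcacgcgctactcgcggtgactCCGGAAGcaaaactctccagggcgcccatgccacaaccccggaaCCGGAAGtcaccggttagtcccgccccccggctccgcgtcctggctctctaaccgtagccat
Mrpl39: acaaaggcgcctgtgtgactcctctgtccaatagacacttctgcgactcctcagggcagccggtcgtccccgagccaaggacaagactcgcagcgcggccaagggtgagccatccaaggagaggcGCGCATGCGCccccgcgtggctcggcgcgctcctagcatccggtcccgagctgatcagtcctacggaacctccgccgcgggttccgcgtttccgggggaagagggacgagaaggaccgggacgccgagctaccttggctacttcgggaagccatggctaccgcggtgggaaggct
Mrpl17: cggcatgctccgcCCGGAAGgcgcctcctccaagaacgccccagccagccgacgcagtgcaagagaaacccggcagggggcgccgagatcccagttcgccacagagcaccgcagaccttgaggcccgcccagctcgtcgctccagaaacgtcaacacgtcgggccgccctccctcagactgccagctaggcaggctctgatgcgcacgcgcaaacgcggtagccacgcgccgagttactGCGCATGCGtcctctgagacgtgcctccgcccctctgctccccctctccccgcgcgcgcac
Mrpl43 has 2 ETS matches, 56 and 12 bases before the start. Mrpl39 has 2 NRF1 matches that overlap, as the motif nearly reads the same on both strands. Mrpl17 has 1 NRF1 match 11 bases before the start and 1 ETS match 237 bases before it.

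Of the 78 members, 69 have an entry in the promoter table. Some genes have more than 1 window, and a gene was counted when any of its windows held the motif. Searched on both strands, GCGCATGCG (NRF1) stood in 7 of the 69, or 10.1%, against 1.95% of 27025 genes with windows of the same length. CCGGAAG (ETS, the family of the GABP factor) stood in 26, or 37.7%, against 9.93%. AAGATGGCG (YY1) stood in 8, or 11.6%, against 1.64%, and GGGCGGG (SP1) in 29, or 42.0%, against 27.9%. At least 1 of the first 3 motifs was present in 36 members, or 52.2%, against 12.7% of the 27025 genes. The ETS motif stood in 5 of the 19 members whose groups were apart and lower, or 26.3%, and in 21 of the 50 other members, or 42.0%. The other motifs ran the other way: NRF1 stood in 3 of the 19 and 4 of the 50, YY1 in 3 of the 19 and 5 of the 50, and SP1 in 9 of the 19 and 20 of the 50. These differences were not tested. A match is only a run of letters in a window, and binding was not measured.

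The promoters of Mrps11 and Mrpl46 are shown because the genes share a start region but had unlike values. They lie head to head on chromosome 7, with 7.97% and 12.2% of their exonic bases shared with each other, and their windows, at chr7:78782881-78783180 (plus strand) and chr7:78783040-78783339 (minus strand), share 141 bases. The Mrps11 window holds a YY1 match 108 bases before its start, on the minus strand. This match lies outside the 141 shared bases, just past the end of the Mrpl46 window that follows the Mrpl46 start. The Mrpl46 window holds no match to the first 3 motifs, but this contrast is set by the edge of the window.
Mrps11: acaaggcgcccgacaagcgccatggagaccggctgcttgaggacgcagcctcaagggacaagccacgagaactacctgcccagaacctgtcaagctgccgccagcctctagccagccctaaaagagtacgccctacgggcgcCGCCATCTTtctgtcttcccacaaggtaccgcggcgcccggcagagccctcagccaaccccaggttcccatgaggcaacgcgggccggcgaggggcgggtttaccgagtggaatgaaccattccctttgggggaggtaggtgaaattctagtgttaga
Mrpl46: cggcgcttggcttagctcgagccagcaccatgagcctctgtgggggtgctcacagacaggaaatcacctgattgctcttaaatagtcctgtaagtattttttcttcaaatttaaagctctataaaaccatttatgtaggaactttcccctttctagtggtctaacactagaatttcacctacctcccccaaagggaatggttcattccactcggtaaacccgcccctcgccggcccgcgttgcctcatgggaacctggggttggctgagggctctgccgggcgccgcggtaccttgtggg
Mrps11, a small-subunit protein with a bacterial counterpart, stood at 42.9, 49.3 and 40.2 CPM in PTZ, against 68.5, 61.02 and 60.05 CPM in PBS, with a log2 fold change of -0.52 (SE 0.21, edgeR adjusted p = 0.688), with no overlap between groups. Mrpl46, of the central protuberance, stood at 173, 185 and 159 CPM in PTZ, against 206, 165 and 153 CPM in PBS, with a log2 fold change of -0.022 (SE 0.21, edgeR adjusted p = 0.992), and its groups overlap. The difference between the pair was not tested.

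In the small subunit, Mrps12 (ENSMUSG00000045948, chromosome 7, 28739641 to 28741820, minus strand), the counterpart of bacterial S12 in the decoding centre, had the smallest p. It stood at 158, 201 and 240.2 CPM in PTZ, against 288, 351 and 304 CPM in PBS, with a log2 fold change of -0.65 (SE 0.23, edgeR adjusted p = 0.648). The groups do not overlap, and PTZ-1 was lowest. Its promoter has 1 ETS match, 1 base after the start. Mrps25, with Mrps11 the other small-subunit gene at an unadjusted p under 0.05, had a log2 fold change of -0.52, but 69.8% of its exonic bases are shared with Nr2c2. Mrps14 and Mrps2, with log2 fold changes of -0.38 and -0.50, had groups that did not overlap but did not reach that threshold.

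A few members had higher levels in PTZ. Mrpl54 (ENSMUSG00000034932, chromosome 10, 81264713 to 81266934, minus strand), a protein of the stalk base, stood at 11.6, 27.6 and 33.1 CPM in PTZ, against 9.65, 8.76 and 14.1 CPM in PBS, with a log2 fold change of 1.15 (SE 0.42, edgeR adjusted p = 0.648). PTZ-2 and PTZ-4 were high, and PTZ-1 lay among the PBS libraries, so that the log2 fold change was 1.49 without it. Mrpl12, the counterpart of bacterial L7/L12, which calls elongation factors to the stalk, stood at 19.1, 25.04 and 53.3 CPM in PTZ, against 26.1, 24.01 and 23.1 CPM in PBS, with a log2 fold change of 0.41 (SE 0.37, edgeR adjusted p = 0.829). Its high mean rests on PTZ-4, and without PTZ-4 the fold change was -0.15. Other stalk proteins had values of the opposite sign: among the 4 tested, Mrpl10 and Mrpl11 had log2 fold changes of -0.83 and -0.31.

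Mrpl38, of the central protuberance, stood at 20.7, 19.99 and 17.9 CPM in PTZ, against 16.1, 14.3 and 5.88 CPM in PBS, with a log2 fold change of 0.69 (SE 0.41, edgeR adjusted p = 0.737). PBS-4 was low, and the fold change was 0.34 without it, while the groups do not overlap. Mrps15, with a bacterial counterpart that binds the small ribosomal RNA, stood at 18.2, 41.3 and 33.7 CPM in PTZ, against 20.2, 30.2 and 14.99 CPM in PBS, with a log2 fold change of 0.51 (SE 0.37, edgeR adjusted p = 0.779). Its groups overlap, with PTZ-1 below PBS-1 and PBS-2, and the fold change was 0.22 without PTZ-2. Mrps27, a pentatricopeptide repeat protein, stood at 29.3, 26.4 and 32.2 CPM in PTZ, against 24.7, 9.55 and 30.4 CPM in PBS, with a log2 fold change of 0.44 (SE 0.39, edgeR adjusted p = 0.826), and PBS-2 alone was low, without which the fold change was 0.063. Mrps6, with a bacterial counterpart, stood at 15.03, 9.40 and 29.3 CPM in PTZ, against 12.5, 14.8 and 11.2 CPM in PBS, with a log2 fold change of 0.49 (SE 0.43, edgeR adjusted p = 0.829), which became -0.068 without PTZ-4. The direction of Mrps6 and of Mrpl12 thus rests on 1 library, as does most of the difference of Mrps27. These genes also share exonic bases with other genes: 19.9% for Mrps6, 13.1% for Mrpl12 and 24.2% for Mrps27.

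Symbols and places in the ribosome differ for some members. Mrps18a, Mrps18b and Mrps18c form a paralog family, of which Mrps18a sits in the large subunit. Mrps18a stood at 199, 240.1 and 184 CPM in PTZ, against 192, 193 and 184 CPM in PBS. Mrps18b stood at 17.7, 13.8 and 16.2 CPM in PTZ, against 21.98, 16.8 and 18.7 CPM in PBS. Mrps18c stood at 93.3, 109 and 90.4 CPM in PTZ, against 107, 102 and 102 CPM in PBS. They had log2 fold changes of 0.13, -0.27 and -0.092, all with overlapping groups, and Mrps18a became -0.024 without PTZ-2. Of their exonic bases, 30.5% of Mrps18b and 23.2% of Mrps18c are shared with other genes. Mrps30, also in the large subunit, stood at 10.9, 7.92 and 12.3 CPM in PTZ, against 11.6, 6.004 and 5.05 CPM in PBS, with a log2 fold change of 0.46 (SE 0.47, edgeR adjusted p = 0.861), which was 0.20 without PBS-4 and 0.91 without PBS-1. Mrps36 is a component of the ketoglutarate dehydrogenase complex and not of the ribosome; it stood at 24.96, 58.1 and 36.1 CPM in PTZ, against 69.4, 64.8 and 54.5 CPM in PBS, with a log2 fold change of -0.67 (SE 0.31, edgeR adjusted p = 0.700). The groups of both overlap. The log2 ratio of summed large to small subunit was 0.97 ± 0.036 in PTZ and 1.02 ± 0.027 in PBS (SD, n = 3 each), a difference of -0.054 by symbol and -0.0095 by place.

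**Figure D3:**
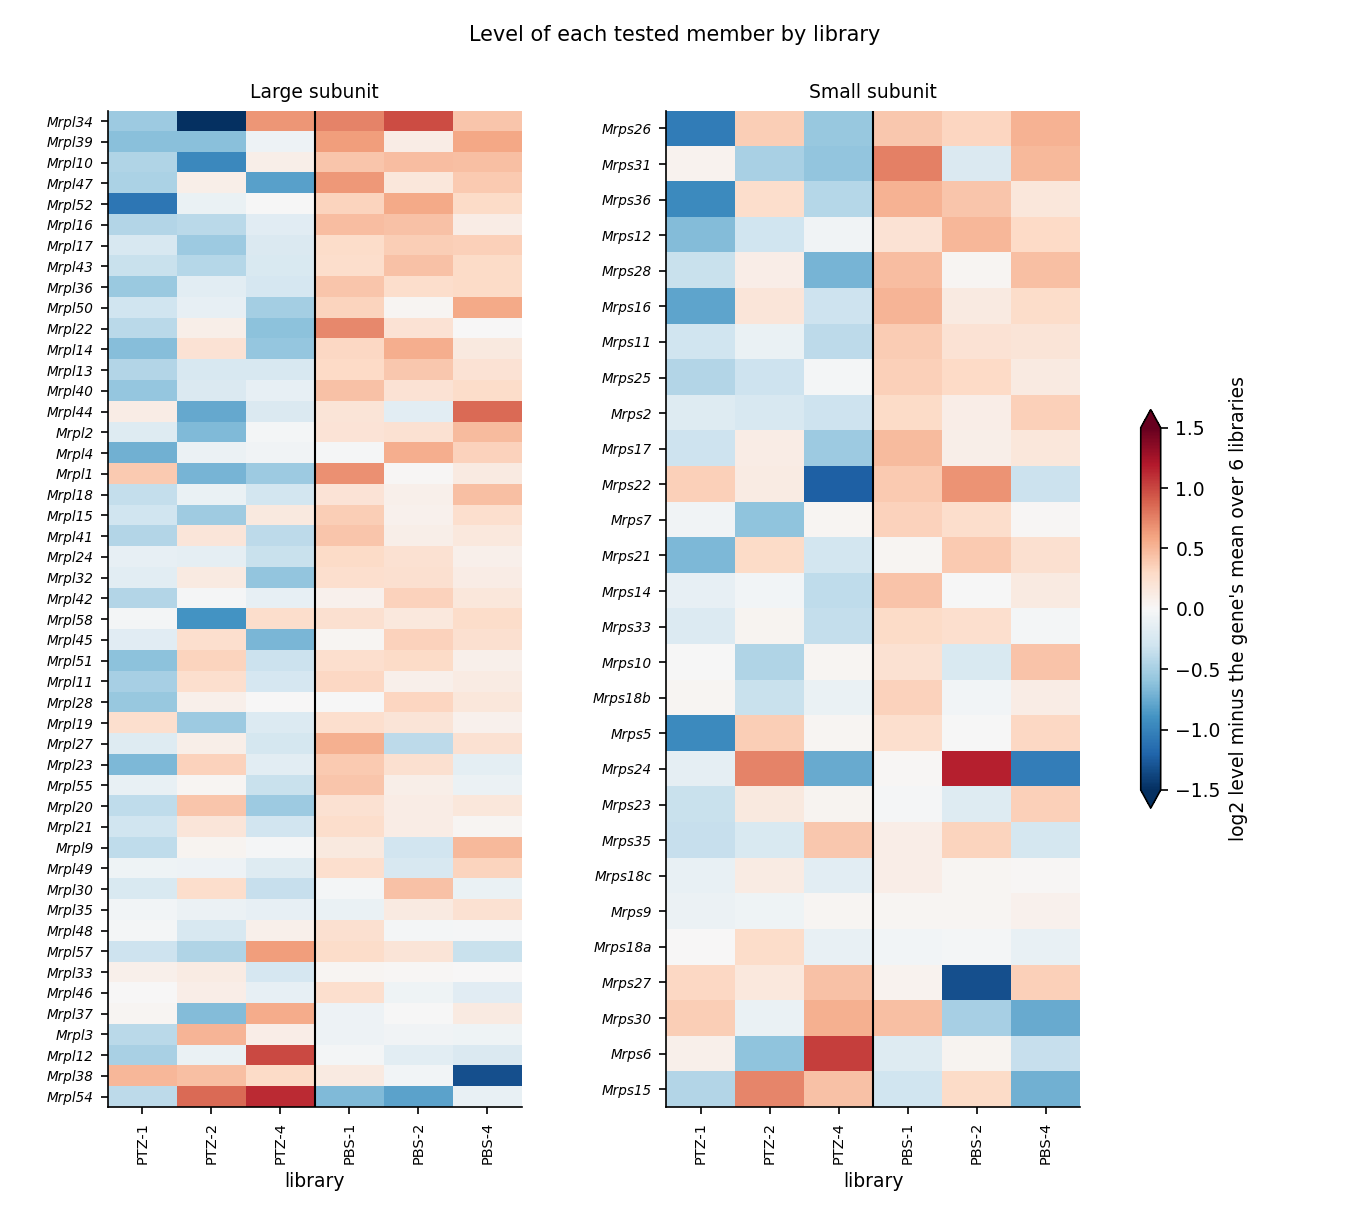
Level of each of the 76 tested members by library, as log2 CPM minus the gene's mean over the 6 libraries, with genes in order of fold change and PTZ left of PBS. Blue cells fill most of the PTZ columns and red cells the PBS columns, with 28 genes lowest in PTZ-1 and 30 highest in PBS-1. Over all genes tested, 20.2% were lowest in PTZ-1, and 1791 of 13768 were highest in PBS-1.

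Library PTZ-1 was lower than the mean of PTZ-2 and PTZ-4 for 51 of 76 tested members, 32 Mrpl and 19 Mrps, with a median log2 difference of -0.15. The largest gaps were Mrpl54 at -1.39, Mrps5 at -1.17, Mrpl52, Mrps15 and Mrpl12 at -1.04 each, and Mrps26 at -1.03. Mrpl1, whose bacterial counterpart forms the stalk by the exit site of transfer RNA, had the largest gap in the other direction, at 1.01. Mrps5, with a bacterial counterpart that shapes decoding accuracy, stood at 31.9, 79.97 and 63.2 CPM in PTZ, against 73.5, 61.3 and 76.5 CPM in PBS, so that its log2 fold change of -0.27 became 0.022 without PTZ-1. Mrpl1 stood at 29.3, 13.8 and 15.3 CPM in PTZ, against 35.9, 22.5 and 24.6 CPM in PBS. Mrpl52, which is mitochondria-specific, stood at 54.1, 108 and 115 CPM in PTZ, against 145, 172 and 140.4 CPM in PBS. Mrps26, also mitochondria-specific, stood at 6.13, 16.4 and 8.55 CPM in PTZ, against 16.9, 15.8 and 18.3 CPM in PBS. For Mrpl52 the groups do not overlap, and for Mrpl1 and Mrps26 they do. The sign was the same with and without PTZ-1 for 72 of 76 tested members.

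**Figure D4:**
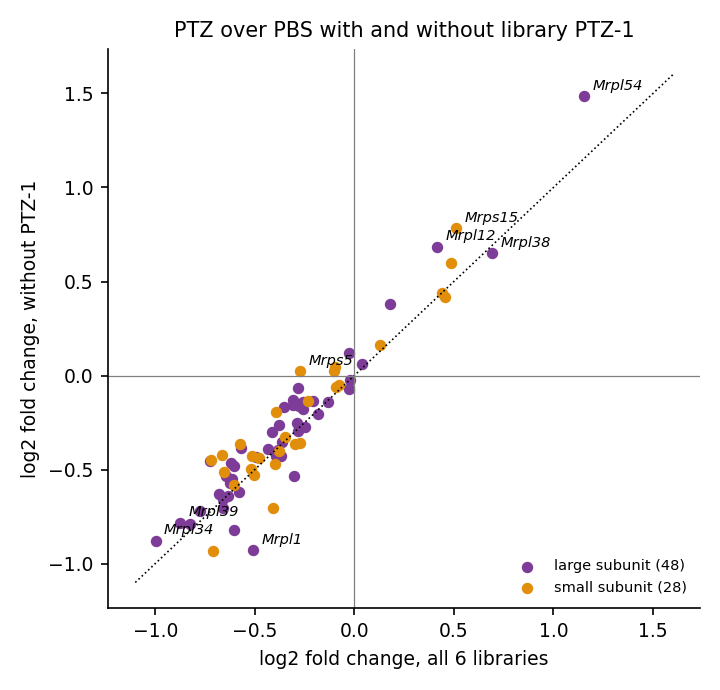
Log2 fold change of the 76 tested members with all 6 libraries (horizontal) and without PTZ-1 (vertical); the dotted line marks equal values. Points follow the line, and Mrpl54 (1.15 and 1.49) and Mrpl1 (-0.51 and -0.93) lie well off it.

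The summed ribosomal RNAs of the mitochondria were higher in PTZ, by log2 differences of 1.53, 0.49 and 0.13 in pairs 1, 2 and 4. The log2 difference of the group means was 0.76, and 0.44 without PTZ-1. These RNAs are made inside the organelle and would not be looked for among RNA bound to cytosolic ribosomes. How their reads came into the libraries is not known from the sources used here. mt-Rnr2, the large-subunit ribosomal RNA, stood at 518, 317 and 244 CPM in PTZ, against 179, 223 and 224 CPM in PBS, with a log2 fold change of 0.79 (SE 0.29, edgeR adjusted p = 0.648), and 0.43 without PTZ-1. mt-Rnr1, of the small subunit, stood at 46.6, 40.5 and 42.4 CPM in PTZ, against 16.6, 32.4 and 36.7 CPM in PBS, with a log2 fold change of 0.60 (SE 0.31, edgeR adjusted p = 0.702). For both, the lowest PTZ library lay above the highest PBS library, and for mt-Rnr2 the highest was PTZ-1. The 11 tested mitochondrial messenger RNAs had a median log2 fold change of 0.39, with 0 below 0, but groups that overlap: mt-Nd1 stood at 431, 570.4 and 595 CPM in PTZ, against 137, 467 and 615 CPM in PBS. The log2 fold changes of mt-Nd4, mt-Co1 and mt-Cytb were 0.71, 0.66 and 0.55. These values depended on single libraries: mt-Nd4 became -0.014 without PTZ-4 and 1.79 without PBS-4, mt-Co1 0.22 without PBS-1 and 1.48 without PBS-4, mt-Cytb 0.18 without PBS-2 and 1.63 without PBS-4, and mt-Nd1 -0.025 without PBS-1. They also summed to widely different levels, 3392 to 8019 CPM in PTZ and 1704 to 7325 CPM in PBS.

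Gene lists linked to the ribosome were read against the background of all genes tested, 3.38% lower and 3.83% higher at an unadjusted p under 0.05, and 3.17% and 2.74% without PTZ-1. Of 28 assembly factors, 23 had a log2 fold change below 0, with a median of -0.34, and 3 were lower at an unadjusted p under 0.05 and 0 higher, and 2 lower without PTZ-1. These were Mterf4, a partner in large-subunit assembly, Ngrn, which acts on the large ribosomal RNA, and Ybey, a ribonuclease of small-subunit assembly. Mterf4 stood at 5.62, 14.9 and 9.11 CPM in PTZ, against 29.5, 25.3 and 29.7 CPM in PBS, with a log2 fold change of -1.51 (SE 0.38, edgeR adjusted p = 0.514). Ngrn stood at 41.96, 35.4 and 43.4 CPM in PTZ, against 60.6, 57.5 and 65.4 CPM in PBS, with a log2 fold change of -0.60 (SE 0.21, edgeR adjusted p = 0.648). Ybey, at 0.730 to 0.990 CPM in PTZ and 2.34 to 3.94 CPM in PBS, was at a very low level. The groups of all 3, which were picked by their small p, do not overlap. Mrm2, a methyltransferase of the large ribosomal RNA, had a log2 fold change of -1.06, with groups that overlap.

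Of 16 translation factors, 10 lay below 0, with a median of -0.15, and 2 were lower at an unadjusted p under 0.05 and 0 higher, with and without PTZ-1. Mtif3, an initiation factor, stood at 13.4, 20.5 and 16.2 CPM in PTZ, against 38.3, 29.03 and 40.2 CPM in PBS, with a log2 fold change of -1.11 (SE 0.28, edgeR adjusted p = 0.516). Mtrf1, a release factor, stood at 0.876, 5.94 and 4.93 CPM in PTZ, against 13.1, 8.46 and 22.00 CPM in PBS, with a log2 fold change of -1.89 (SE 0.68, edgeR adjusted p = 0.648). The groups of both, picked in the same way, do not overlap, nor do those of Mtfmt, which formylates the initiator methionine, at -0.65. 1700021F05Rik (Mtres1) had -0.36, with overlap. Of 10 tested genes for mitochondrial transcription and genome maintenance, 9 lay below 0 (median -0.41), 1 was lower at an unadjusted p under 0.05 and 0 higher, and 0 were lower without PTZ-1. That 1 was Tefm, the elongation factor of mitochondrial transcription, with a log2 fold change of -1.23. Tfam, which packages mitochondrial DNA, was at -0.48, Mterf1a at -1.75 and Polg2, a subunit of the mitochondrial DNA polymerase, at 1.37, all with overlapping groups. With single libraries left out, Mterf1a ran from -3.94 to -1.26 and Polg2 from 0.96 to 2.62.

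Of 5 ribosomal proteins without the Mrpl or Mrps symbol, 3 lay below 0 and 0 had an unadjusted p under 0.05. Aurkaip1 stood at 249.9, 352 and 263 CPM in PTZ, against 376, 372 and 372 CPM in PBS, and its groups do not overlap. Chchd1 had a log2 fold change of -0.37. Dap3 and Ptcd3, at 0.16 and 0.10, have groups that overlap. Of 9 tested regulators of nuclear genes for mitochondria, 3 lay below 0 (median 0.16), and 0 had an unadjusted p under 0.05 in either direction. Nrf1, whose product binds the motif above, stood at 43.5, 46.8 and 40.00 CPM in PTZ, against 38.8, 34.9 and 26.4 CPM in PBS, with no overlap and a log2 fold change of 0.38 (SE 0.24, edgeR adjusted p = 0.764). Yy1 had 0.59, Gabpa, the DNA-binding subunit of GABP, 0.29, and Gabpb1, its partner, 0.49, with groups that overlap. Of 8 proteases, Lonp1 alone had an unadjusted p under 0.05, with a log2 fold change of 0.64 (SE 0.25, edgeR adjusted p = 0.673) and groups that overlap. Spg7, Clpp and Afg3l2 had log2 fold changes of 0.44, -0.32 and 0.27.

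**Figure D5:**
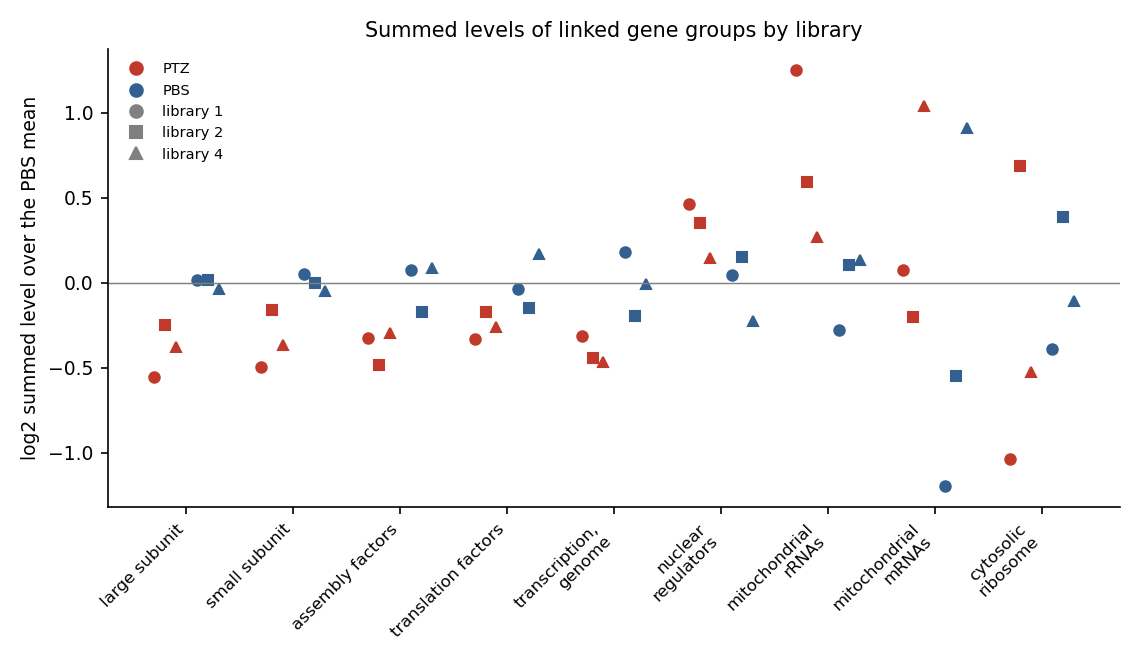
Summed level of linked gene groups by library, as log2 over the mean of the PBS libraries; colour gives the group and shape the library number. Both subunits, the assembly factors, the translation factors and the genes for transcription lay below 0 in all 3 PTZ libraries, and the cytosolic ribosome and mitochondrial messenger RNAs were spread over both sides.

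The values of the cytosolic ribosome were spread more widely between libraries. Its 83 protein genes summed to 16648, 54817 and 23709.9 CPM in PTZ, against 26035, 44634 and 31714 CPM in PBS, with groups that overlap, and the median log2 fold change of the 81 tested was -0.12, and 0.19 without PTZ-1. Of the 81 tested cytosolic genes, 68 had a log2 fold change below 0, and 10 did without PTZ-1. For the mitochondrial ribosome these counts were 66 and 62 of 76. In pairs 1, 2 and 4 the cytosolic genes lower in PTZ numbered 78, 4 and 76, against 68, 50 and 60 of the 76 members. The mitochondrial ribosome's medians of -0.37 and -0.36 kept their sign without PTZ-1. The difference between the ribosomes was not tested.

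Markers of endothelial and other cell types were summed in the same way, and for every list the ranges of the groups overlap. The 12 endothelial markers summed to 13654 to 25389 CPM in PTZ and 13751 to 20734 CPM in PBS. Of the 12, 9 lay above 0, with a median log2 fold change of 0.16, and 10 without PTZ-1, with a median of 0.33. The 11 pericyte and smooth muscle markers summed to 381 to 1162 CPM in PTZ and 214 to 588 CPM in PBS, with 10 of 10 tested above 0, a median log2 fold change of 1.23 and 5 higher at an unadjusted p under 0.05, against a background of 3.83%. Of these 10 markers, 9 were highest in PTZ-1, and without PTZ-1 the median was 0.63 and 1 was higher, against a background of 2.74%. Within pairs of the same number, the log2 difference of the sum was 2.44, 0.25 and 0.87 for libraries 1, 2 and 4. The 6 fibroblast markers summed to 83.7 to 261 CPM in PTZ and 81.5 to 143 CPM in PBS. All 6 lay above 0, with a median log2 fold change of 1.41, and 5 without PTZ-1, with a median of 1.16. At an unadjusted p under 0.05, 3 were higher, against a background of 3.83%, and 2 without PTZ-1, against 2.74%. Within pairs of the same number, the log2 difference of the sum was 1.58, -0.055 and 0.87 for libraries 1, 2 and 4. The 8 microglia and macrophage markers summed to 775 to 1139.8 CPM in PTZ and 1019.9 to 1468 CPM in PBS, with 8 of 8 below 0 and 2 lower at an unadjusted p under 0.05, against a background of 3.38%. With the library number as a block 5 were lower, against a background of 5.31%. In that fit 2 of 7 blood markers were also lower. Higher were 3 endothelial, 5 pericyte and smooth muscle and 2 fibroblast markers, against a background of 5.59%. The microglia and macrophage sum was lower in PTZ in all 3 pairs, with log2 differences of -0.63, -0.40 and -0.37. So were the sums of both subunits of the mitochondrial ribosome. The same held for the assembly factors, the translation factors and the genes for mitochondrial transcription and genome maintenance. The neuron markers summed to 23.6 to 40.8 CPM in PTZ and 14.3 to 41.9 CPM in PBS, the astrocyte markers to 60.6 to 154 CPM in PTZ and 45.6 to 134 CPM in PBS, the oligodendrocyte markers to 82.5 to 179 CPM in PTZ and 60.6 to 212 CPM in PBS and the blood markers to 4223 to 8728 CPM in PTZ and 5123 to 8185 CPM in PBS. No marker in these lists was at 0 in all libraries. The part of these cells in the lower level of the mitochondrial ribosome was not tested.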

How the data were processed

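RNA was extracted with Trizol and made into 3 libraries per group with a low-input NEBNext kit, per the labels' protocols. Tools listed in the submitters' processing notes are TopHat2 2.1.1, HTSeq, CASAVA and edgeR, and the genome is GRCm38; what each did is not stated. Since neither the strand setting nor the annotation release of the counting is known from the sources used here, values of overlapping genes, paralogs and pseudogenes are uncertain. The authors deposited raw counts per gene, whole numbers in 6 columns, per the file headers, and 1 scaled signal file per library, whose values are those counts over a constant; this scaling was an alternative only. The 5 rows that name no gene, 16.1% to 22.9% of the reads, were left out.

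Symbols, coordinates and exons came from GENCODE M21 (GRCm38), and 53360 of the IDs matched. From the counts, 13768 of 34777 genes with a read passed filterByExpr (minimum count 10, minimum total 15), and edgeR 4.0.16 (R 4.3.3) fitted TMM-scaled counts with glmQLFit and glmQLFTest on the group, 2-sided, with Benjamini-Hochberg adjustment over all genes and a threshold of 0.05. SE values come from the fold change and its F statistic. The common dispersion was 0.221 and the total counts of 11107481 to 15406967 set the counting error. Libraries of a group differed beyond sampling noise (chi-square per degree of freedom 49.8 to 119). Same-numbered libraries deviated together, with correlations of 0.167, 0.197 and 0.217 across genes. For unlike numbers they were -0.127 to -0.062. Deviations were taken from each gene's group mean, so positive values for like numbers push those for unlike numbers below 0. The negative values are therefore no separate support for pairing. From the correlations of like numbers alone, the numbers were taken as pairs where differences within pairs are given. The main edgeR fit, which gave the SE and adjusted p-values of single genes, had no pairing. The block was an alternative, in which the smallest edgeR adjusted p of a member was 0.322. Other alternatives were DESeq2 1.42.0, limma-voom 3.58.1, other scalings, no filter, each library left out, and the subunit by place in the ribosome. The members and lists were chosen with earlier results of these data known. Named members are those with the smallest p per direction (up to 8), the 3 highest per length per subunit, the Mrps18 family, Mrps30 and Mrps36, and the 4 largest deviations of PTZ-1 per subunit; from each list up to 4 genes with the smallest p, with Pecam1 and Cldn5. Mrps11, Mrpl46, Mrps25, Mrps14, Mrps2, Mrpl10, Mrpl11, Mrpl53 and Mrps34 were named after their values were seen. Mtrfr was not matched.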

Additional observations from a re-analysis of the deposited data

How the results depend on the processing

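No member was called at an adjusted p of 0.05 under any alternative. Over all genes, the 0 calls became 44 lower and 77 higher with no filter on low counts, 23 and 53 with DESeq2, 0 and 1 with limma-voom, and 0 lower and up to 8 higher when a library was left out (8 without PBS-2, 0 without any other). Without each library in turn, the Mrpl median ran from -0.49 to -0.34, the Mrpl sum from -0.50 to -0.31 and the Mrps sum from -0.46 to -0.26, with the most negative value without PTZ-2. The members lower at an unadjusted p under 0.05 ran from 10 to 32 and those higher from 0 to 2, while the share of all genes ran from 1.90% to 6.57% lower and from 2.46% to 4.55% higher. With the library numbers as a replicate block, 27 members were lower and 0 were called. The log2 large to small ratio moved to -0.0095 by place in the ribosome. Leaving out single libraries turned the sign of 9 named genes, with these ranges of log2 fold change: Mrps6 -0.068 (without PTZ-4) to 0.76, Mrpl12 -0.15 (without PTZ-4) to 0.69, Mrps18a -0.024 (without PTZ-2) to 0.21, Mrps5 -0.60 to 0.022 (without PTZ-1), Dap3 -0.048 (without PBS-2) to 0.27, Ptcd3 -0.084 (without PTZ-4, and -0.070 without PBS-4) to 0.30, mt-Nd4 -0.014 (without PTZ-4) to 1.79, mt-Nd1 -0.025 (without PBS-1) to 0.79, and Cldn5 -0.46 (without PTZ-2, and -0.12 without PBS-4) to 0.58. The cause was not tested. In 755 other gene-level comparisons the result kept its direction and side of the threshold, and Mterf4 alone passed it, with no filter. Of the summary comparisons, 124 stayed the same and 18 moved. For a median, sum or ratio, the same means a shift smaller than the pooled SD between libraries. For a count, it means within a set fold of the main count. Medians of both subunits were negative under every alternative run. With 3 libraries per group, single-gene differences of this size could not be told from the spread between libraries.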
